A study of Homo sapiens with 21 samples.

Results

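The DUSP, Sprouty and SPRED feedback genes hold mitogen-activated protein (MAP) kinase signalling in check, and 10 of them were followed in H1975, an established human lung adenocarcinoma cell line with an activated epidermal growth factor receptor (EGFR). They were chosen by symbol, with earlier results of these data known, as rows of the H1975 RNA-seq table: 5 dual-specificity phosphatase genes (DUSP1, DUSP4, DUSP5, DUSP6 and DUSP10), 3 Sprouty genes (SPRY1, SPRY2 and SPRY4) and 2 SPRED genes (SPRED1 and SPRED2). All 10 were found among the 34021 genes of the table. The series holds 21 samples, of which the 9 RNA-seq libraries were used, in 3 groups of 3 after 8 days. The group DMSO+EV received vehicle (DMSO) with EV, a label the submitters did not spell out. OL+EV, also with EV in its titles, received osimertinib, which blocks mutant EGFR by binding it covalently, together with linsitinib, which blocks the receptor kinases for insulin and insulin-like growth factor, each at 500 nM. OC received 500 nM osimertinib and overexpressed cIGF1R, the circular RNA of the IGF1R gene, and its labels name no EV. DMSO+EV and OL+EV are labelled wild type. RNA-seq of cells given osimertinib plus EV was not analysed here. In OC the drug and the circular RNA therefore cannot be told apart, and in OL+EV neither can the 2 drugs. Between OC and OL+EV, linsitinib, cIGF1R and the EV label differ at once and cannot be told apart. All 9 libraries come from 1 cell line, and the labels do not describe the construct that expressed cIGF1R.

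Growth factor receptors switch on RAS, which starts the chain of RAF, MEK and ERK kinases. Active ERK induces genes whose products shut the same chain down. The dual-specificity phosphatases of this family remove the phosphates that activate MAP kinases: DUSP6 acts on ERK in the cytoplasm, DUSP5 on ERK in the nucleus, DUSP1 and DUSP4 in the nucleus on ERK, JNK and p38, and DUSP10 mainly on the stress kinases JNK and p38. Sprouty proteins act between the receptor and RAF, and SPRED proteins bind neurofibromin and bring it to RAS at the membrane. In lung cancers driven by mutant EGFR, several of these transcripts are widely used as readouts of ERK activity.

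No unit is written in the table. The values look like FPKM (fragments of a gene scaled to its length and to the library), and all levels below are FPKM on that reading. Column totals ran from 429553 to 474156 FPKM in DMSO+EV, 423319 to 432563 in OL+EV and 338034 to 381311 in OC. Read depth is unknown, and so no counting interval could be given. Libraries of 1 group correlated with Pearson's r of 0.986 to 0.994, and libraries of different groups with 0.817 to 0.929, on log2 values across the tested genes, which are not independent replicates. The labels carry 1 extraction protocol for all samples, in which RNase R is named. This enzyme degrades linear RNA, and whether these RNA-seq libraries were treated with it is not settled. All 8 carcinoma epithelial markers were present in every group, and several moved: 2 rose in OL+EV, and 5 rose and 1 fell in OC. MUC1, a surface mucin, had means of 11.4, 37.9 and 77.8 FPKM in DMSO+EV, OL+EV and OC. CDH1 (E-cadherin) held 41.9, 48.9 and 120.6 and was not called in OL+EV. KRT7, the marker that fell in OC, held 2385, 2263 and 1735. EPCAM, an epithelial adhesion molecule that was not called, held 98.7, 94.2 and 100.2. The part of these shifts in the results below was not tested. Of 5 fibroblast markers in the table only COL1A1, of 4 endothelial markers only CDH5 and of 7 leukocyte markers only CD14 and CD68 reached a mean of 1 FPKM in any group. The leukocyte markers summed to 22.9 to 29.2 FPKM in DMSO+EV, 23.8 to 28.8 in OL+EV and 422 to 450 in OC, nearly all of it CD68. PTPRC, which defines leukocytes, stayed at means of 0.0104, 0.0146 and 0.0117 FPKM in DMSO+EV, OL+EV and OC. In bulk libraries fewer cells that express a gene and less RNA per cell cannot be told apart. Whether the 3 libraries of a group are separate cultures is not stated in the labels, so the p-values rest on a spread that may be technical.

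RefSeq promoter windows, 250 bases before to 50 after an annotated start, were searched for 8 of the 10 genes, 13 windows in all. No window of DUSP4 or DUSP5 was among those kept for the search. Their absence does not show that RefSeq lacks a start for DUSP4 or DUSP5, and nothing is said here about their promoters. Windows of 4 genes are shown because their transcripts took different courses: DUSP1 parted the treated groups, DUSP6 fell in both, and SPRY1 and SPRY2 were low in OL+EV while their OC and vehicle values overlapped. Capitals mark any match, on either strand, to the cAMP response element TGACGTCA, the AP-1 site TGANTCA, the CArG box bound by serum response factor, the ETS site CCGGAA, the EGR site GCGGGGGCG or the CIC octamer TGAATGAA. Coordinates are GRCh38.p14 and the letters read 5′ to 3′ on the gene's strand.
DUSP1, chr5:172771146-172771445, minus strand: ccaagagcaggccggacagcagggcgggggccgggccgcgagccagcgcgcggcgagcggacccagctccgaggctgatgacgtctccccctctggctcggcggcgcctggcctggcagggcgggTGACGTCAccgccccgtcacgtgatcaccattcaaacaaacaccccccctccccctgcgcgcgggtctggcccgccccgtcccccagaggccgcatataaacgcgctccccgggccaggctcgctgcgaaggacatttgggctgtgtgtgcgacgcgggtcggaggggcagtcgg
DUSP6, chr12:89352452-89352751, minus strand: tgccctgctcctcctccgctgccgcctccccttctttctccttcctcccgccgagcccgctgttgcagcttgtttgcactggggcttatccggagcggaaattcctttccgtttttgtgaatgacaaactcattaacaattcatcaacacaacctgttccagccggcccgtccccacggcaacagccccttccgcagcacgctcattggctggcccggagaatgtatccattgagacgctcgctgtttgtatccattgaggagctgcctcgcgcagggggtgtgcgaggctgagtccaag
SPRY1, chr4:123398136-123398435, plus strand: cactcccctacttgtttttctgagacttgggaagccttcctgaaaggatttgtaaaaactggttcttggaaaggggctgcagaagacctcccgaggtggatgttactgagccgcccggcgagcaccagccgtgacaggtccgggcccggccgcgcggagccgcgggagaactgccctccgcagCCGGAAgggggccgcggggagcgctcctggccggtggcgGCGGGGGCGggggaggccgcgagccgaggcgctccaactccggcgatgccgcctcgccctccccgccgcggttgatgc
SPRY2, chr13:80341077-80341376, minus strand: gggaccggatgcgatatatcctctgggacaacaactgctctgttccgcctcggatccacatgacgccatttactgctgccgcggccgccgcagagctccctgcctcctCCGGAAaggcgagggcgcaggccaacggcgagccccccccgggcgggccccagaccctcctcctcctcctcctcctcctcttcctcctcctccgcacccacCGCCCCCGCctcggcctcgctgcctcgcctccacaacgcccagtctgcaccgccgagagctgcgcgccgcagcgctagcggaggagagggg

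The DUSP1 window held 1 full cAMP response element, whose first base lies 125 bases before the start. The same letters occur in 1.85% of the 35116 promoter windows of the RefSeq table. The SPRY1 and SPRY2 windows shown each held 1 ETS site, present in 17.2% of all windows, and 1 EGR site, present in 5.07%. Both genes have further windows, not shown, that matched none of the 6 searches. Of the 13 member windows 2 held the ETS site and 2 the EGR site. In SPRY2 the EGR letters lie on the other strand and read CGCCCCCGC in the run above. A second SPRED2 window held the AP-1 letters at 2 places, which 7.71% of all windows have at least once. None of the 13 windows held a CArG box (1.29% of all windows) or the CIC octamer (1.65%), and the DUSP6 window matched none of the 6 searches. These are matches of letters and no measure of binding, and the search was set up with the expression values known.

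In vehicle-treated cells the DUSP messages dominated the family. Mean levels ran in the order DUSP1 (28.8 FPKM), DUSP4 (19.8), DUSP5 (14.5), DUSP6 (13.9), SPRED2 (5.70), SPRY4 (3.05), DUSP10 (2.83), SPRED1 (2.13), SPRY2 (1.48) and SPRY1 (0.494). The ranges of DUSP5 and DUSP6 overlapped, as did those of SPRY4 and DUSP10, and other neighbours in the order did not overlap. Summed over the 10 genes the level was 92.4 to 92.8 FPKM in DMSO+EV, 131 to 139 in OL+EV and 39.3 to 40.4 in OC. DUSP1 alone made up 31.1% ± 1.45 of that sum in DMSO+EV, 89.3% ± 0.613 in OL+EV and 42.1% ± 0.681 in OC (SD, n = 3). Without DUSP1 the sum was 63.8 ± 1.47 FPKM in DMSO+EV, 14.5 ± 1.01 in OL+EV and 23 ± 0.579 in OC (SD, n = 3; two-sided exact permutation p = 0.1 for each pair of groups, the smallest that 3 against 3 libraries allow). So the treated groups lay on opposite sides of vehicle when DUSP1 was counted, and both lay below it when DUSP1 was left out.

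**Figure D1:**
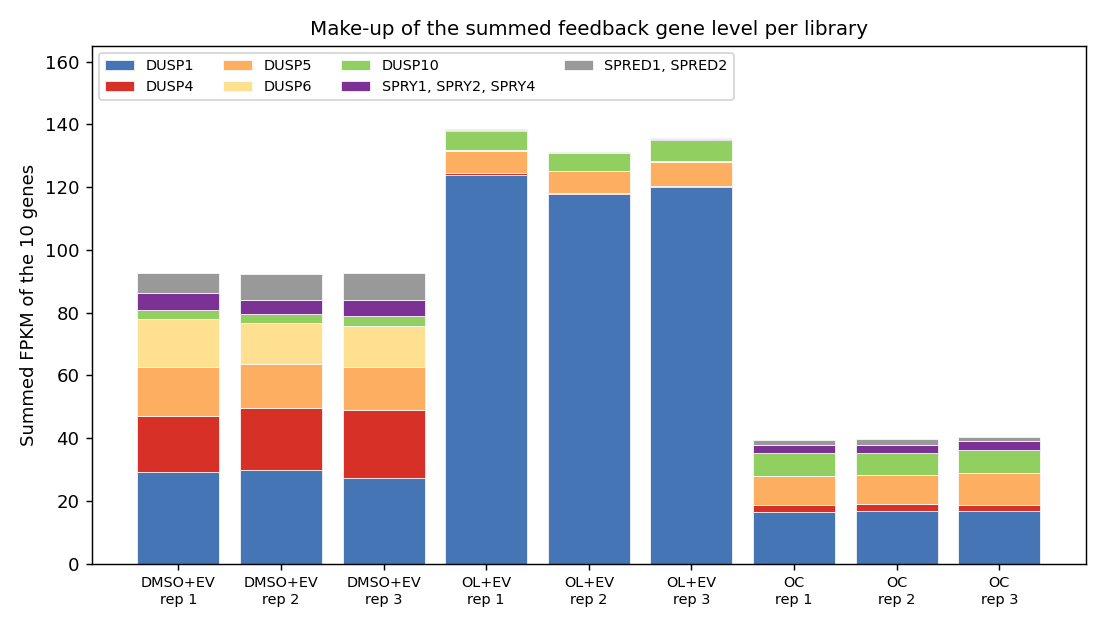
Stacked bars give the summed FPKM of the 10 genes (vertical axis, linear, from 0) in each of the 9 libraries, divided by gene or gene family. DUSP1 fills 88.6% to 89.7% of each OL+EV bar, while the OC bars are the shortest, at 39.3 to 40.4 FPKM.

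In the comparison of OL+EV with DMSO+EV, 7 members fell and 2 rose of the 9 that could be tested. Over all 13775 genes tested, 23.5% fell and 29.0% rose (52.6% in either direction; limma, Benjamini-Hochberg adjusted p under 0.05). The members' median log2 fold change was -1.49 and that of all genes tested 0.05. SPRY1 was below the filter of 1 FPKM in 3 libraries. DUSP6, SPRY4 and SPRED1 passed it only through DMSO+EV, where they were high, so their calls follow in part from the filter. In OC against DMSO+EV 7 members fell, 1 rose and 1 was not called, beside 35.8% and 33.1% of all genes (69.0% in either direction), with medians of -1.28 and -0.03. In OC against OL+EV 1 member was lower, 5 were higher and 3 were not called, beside 34.8% and 25.9% of all genes (60.7% in either direction), with medians of 0.39 and -0.09. The comparisons share libraries: OL+EV and OC were both set against the same 3 DMSO+EV libraries. By level alone, with SPRY1 included, the OL+EV values lay below all DMSO+EV values for 8 members and above them for 2, which held for 27.6% and 34.3% of the tested genes (61.9% in either direction). OC lay below DMSO+EV for 7 members, above it for 1 and overlapped it for SPRY1 and SPRY2 (36.5% and 33.3% of the tested genes lay below and above, 69.8% in either direction). OC lay below OL+EV for DUSP1 and DUSP6 and above it for the other 8 (38.4% and 29.6%, 68.1% in either direction). Fold changes are differences of log2(FPKM + 1), which understate the change of genes near 0, so the levels stand beside them.

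**Figure D2:**
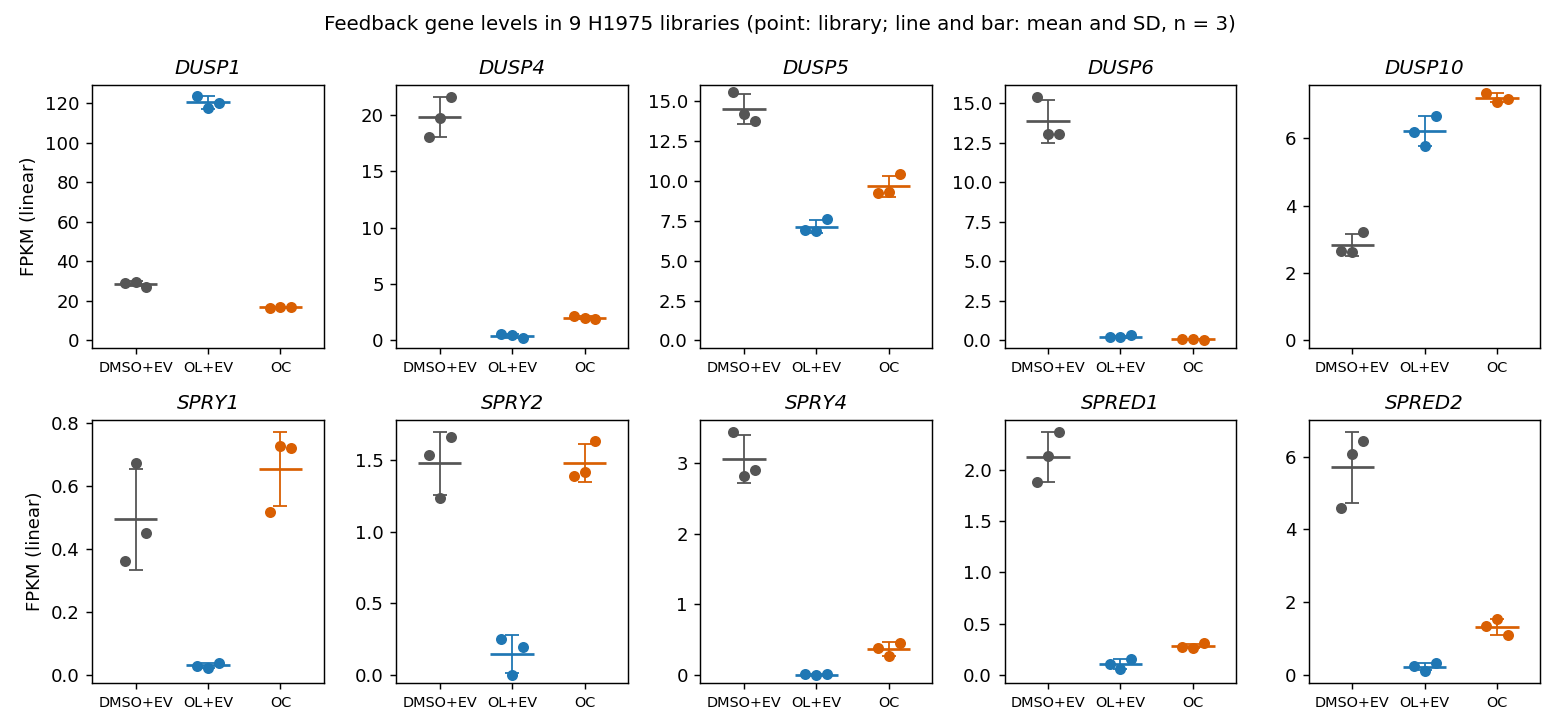
Each panel shows 1 gene in FPKM (linear axis, its own scale), with a point per library and the mean and SD of 3 libraries per group. DUSP1 is highest in OL+EV, DUSP10 is higher in both treated groups, DUSP4, DUSP6, SPRY4, SPRED1 and SPRED2 drop in both, and SPRY1 and SPRY2 are low in OL+EV, with OC and DMSO+EV points that overlap.

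DUSP6, the cytoplasmic ERK phosphatase (chromosome 12 from 89347235 to 89352501, GRCh38), stood at 15.4, 13.1 and 13.1 FPKM in DMSO+EV replicates 1, 2 and 3. OL+EV held 0.207, 0.214 and 0.314, and OC 0.0921, 0.0876 and 0.0462. The transcript was near 0 in all 6 treated libraries and no groups overlapped. It fell by 3.57 on the log2 scale in OL+EV (SE 0.10, limma adjusted p = 2.05e-11), a mean level 56.5-fold lower. In OC it fell by 3.78 (SE 0.10, limma adjusted p = 1.31e-12), 184-fold lower. OC and OL+EV did not differ by the test (log2 difference -0.21, 95% interval -0.42 to 0.00, limma adjusted p = 0.0784). That call depended on how values near 0 were weighted: with a pseudocount of 0.1 the difference was -0.97 (limma adjusted p = 0.00146), and quantile normalization gave 0.028, in a range of 0.00146 to 0.457 over the alternatives. The readthrough gene POC1B-DUSP6 overlaps DUSP6, and reads of both could not be separated here.

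DUSP4, a nuclear MAP kinase phosphatase (chromosome 8 from 29333064 to 29350684), went from 18, 19.8 and 21.6 FPKM in DMSO+EV to 0.541, 0.463 and 0.209 in OL+EV. In OC it stood at 2.14, 1.99 and 1.87. Each OC library thus lay below every vehicle library and above every OL+EV library. The fall was 48.9-fold in OL+EV and 9.91-fold in OC, or log2 fold changes of -3.89 and -2.79 (SE 0.11 in both; limma adjusted p = 2.3e-11 and 9.95e-11). Between the treated groups OC was 4.94-fold higher (log2 difference 1.10, SE 0.11, limma adjusted p = 2.75e-06).

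DUSP5, the nuclear ERK phosphatase (chromosome 10 from 110497907 to 110511533), changed far less. Its levels were 15.6, 14.2 and 13.8 FPKM in DMSO+EV, 6.94, 6.84 and 7.6 in OL+EV and 9.23, 9.32 and 10.4 in OC. The 3 groups did not overlap, with OC again between the others. DUSP5 was 2.04-fold lower in OL+EV (log2 fold change -0.93, SE 0.09, limma adjusted p = 1.9e-06) and 1.5-fold lower in OC (-0.54, SE 0.09, limma adjusted p = 0.000126). OC exceeded OL+EV by 1.35-fold (0.39, SE 0.09, limma adjusted p = 0.00227). Only DUSP1 exceeded DUSP5 in the treated groups, while in vehicle DUSP4 did as well.

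DUSP1, an immediate early gene whose product acts on ERK, JNK and p38 (chromosome 5 from 172768096 to 172771195), had the largest difference between the treated groups among the 9 tested members on the log2(FPKM + 1) scale, while the ratio of mean levels was larger for SPRY4, SPRY1 and SPRY2. It stood at 29.1, 29.8 and 27.3 FPKM in DMSO+EV and rose to 124, 118 and 120.2 in OL+EV. In OC it fell to 16.6, 16.9 and 16.7. All OL+EV libraries were above every vehicle library and all OC libraries below. The rise in OL+EV was 4.19-fold (log2 fold change 2.03, SE 0.08, limma adjusted p = 3.42e-10), and the fall in OC 1.71-fold (-0.74, SE 0.08, limma adjusted p = 2.64e-06). From OL+EV to OC the level was 7.19-fold lower (-2.77, SE 0.08, limma adjusted p = 6.79e-12), the fifth-lowest log2 difference of the 13775 genes tested in that comparison.

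DUSP10, the phosphatase of JNK and p38 (chromosome 1 from 221701424 to 221742089), was the only member higher than vehicle in both treated groups. Its values were 2.66, 2.62 and 3.22 FPKM in DMSO+EV, 6.2, 5.77 and 6.67 in OL+EV and 7.34, 7.08 and 7.18 in OC. All treated libraries lay above all vehicle libraries. The mean was 2.19-fold higher in OL+EV (log2 fold change 0.91, SE 0.10, limma adjusted p = 3.84e-06) and 2.54-fold higher in OC (1.10, SE 0.10, limma adjusted p = 2.68e-07). OC and OL+EV were not called different (log2 difference 0.19, 95% interval -0.02 to 0.39, limma adjusted p = 0.108), though median-of-ratios rescaling of the libraries called it (limma adjusted p = 0.0351, range 0.0351 to 0.313 over the alternatives).

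The Sprouty members were low to begin with and lower still in OL+EV, while in OC only SPRY4 lay below vehicle. SPRY4 (chromosome 5 from 142310430 to 142325021), the most abundant of them in vehicle, stood at 3.44, 2.82 and 2.9 FPKM in DMSO+EV. OL+EV held 0.011, 0 and 0.0137, and OC 0.39, 0.268 and 0.451. It was almost absent from OL+EV and low but present in every OC library. SPRY4 fell by 2.00 on the log2 scale in OL+EV (SE 0.10, limma adjusted p = 2.7e-09) and by 1.56 in OC (SE 0.10, limma adjusted p = 1.14e-08), and OC was above OL+EV by 0.44 (SE 0.10, limma adjusted p = 0.0019). The noncoding SPRY4-IT1 overlaps SPRY4 and had means of 0.0534 FPKM or less in each group. No source used here says whether the counting used strand.

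SPRY2, which binds the ubiquitin ligase CBL and dampens receptor signalling (chromosome 13 from 80335976 to 80341126), showed a clear contrast between the treatments. Vehicle libraries held 1.54, 1.23 and 1.66 FPKM and OC libraries 1.39, 1.42 and 1.63. In OL+EV the values were 0.254, 0 and 0.196. The OC and vehicle values overlapped fully, while every OL+EV value was below both. SPRY2 fell by 1.11 on the log2 scale in OL+EV (SE 0.11, limma adjusted p = 3.01e-06). In OC the difference from vehicle was 0.00 with a 95% interval of -0.24 to 0.25 (limma adjusted p = 0.977), and OC was above OL+EV by 1.11 (SE 0.11, limma adjusted p = 2.72e-06), or 9.87-fold in mean level.

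SPRY1, a close relative of SPRY2 (chromosome 4 from 123396795 to 123403760), followed the same course at a lower level. Its values were 0.361, 0.671 and 0.449 FPKM in DMSO+EV, 0.517, 0.725 and 0.719 in OC and 0.0294, 0.0239 and 0.0395 in OL+EV. Vehicle and OC overlapped, and OL+EV lay below both, 16-fold under vehicle in mean level. A two-sided exact permutation test gave p = 0.1 for OL+EV against either other group and p = 0.2 for OC against DMSO+EV, where 0.1 is the smallest that 3 against 3 libraries allow. Without the filter on low values limma gave an adjusted p of 0.00372 for OL+EV against DMSO+EV, 0.284 for OC against DMSO+EV and 0.000906 for OC against OL+EV.

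Both SPRED members fell in both treated groups. SPRED2 (chromosome 2 from 65307175 to 65432599) stood at 4.59, 6.08 and 6.44 FPKM in DMSO+EV, 0.259, 0.122 and 0.329 in OL+EV and 1.34, 1.54 and 1.1 in OC. No groups overlapped, and OC lay in between. SPRED2 was 24.1-fold lower in OL+EV (log2 fold change -2.43, SE 0.13, limma adjusted p = 4.13e-09) and 4.29-fold lower in OC (-1.52, SE 0.13, limma adjusted p = 1.68e-07), with OC above OL+EV by 5.61-fold (0.91, SE 0.13, limma adjusted p = 4.04e-05).

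SPRED1 (chromosome 15 from 38252836 to 38357249), which is mutated in a RASopathy, held 1.88, 2.13 and 2.37 FPKM in DMSO+EV. OL+EV held 0.109, 0.0642 and 0.157, and OC 0.276, 0.266 and 0.311. Treated libraries were all far under vehicle, at 19.4-fold lower in OL+EV and 7.49-fold lower in OC (log2 fold changes -1.49 and -1.28, SE 0.10 in both; limma adjusted p = 3.52e-08 and 5.98e-08). OC was not called different from OL+EV (log2 difference 0.21, 95% interval 0.00 to 0.42, limma adjusted p = 0.0726), and that call also turned with a pseudocount of 0.1 (0.89, limma adjusted p = 0.00744) and in a fit of the compared groups only (0.0495), in a range of 0.00744 to 0.217.

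**Figure D3:**
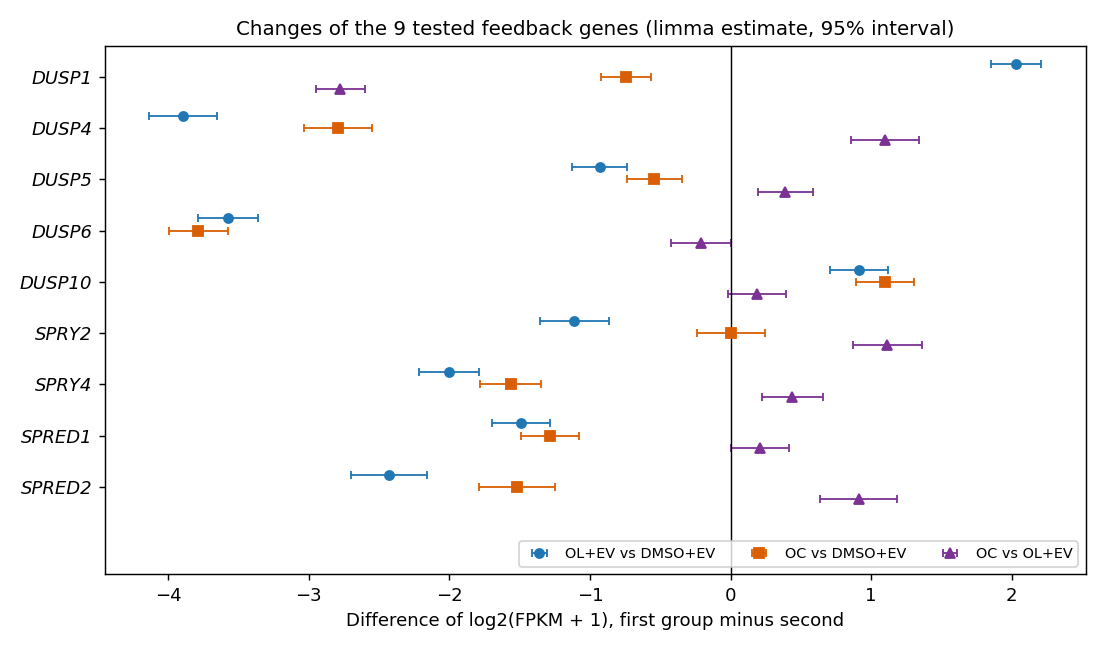
Points give the limma difference of log2(FPKM + 1) for the 9 tested genes (horizontal axis) in the 3 comparisons, with 95% intervals. DUSP1 lies right of 0 in OL+EV and left of 0 in OC, and the OC against OL+EV differences of DUSP4, DUSP5, SPRY2, SPRY4 and SPRED2 lie right of 0.

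The size of these log2 differences depended on the pseudocount for genes near 0. In OL+EV against DMSO+EV, pseudocounts of 0.1 and 5 in place of 1 gave -5.37 and -2.20 for DUSP4, -5.35 and -1.84 for DUSP6, -2.84 and -0.33 for SPRY2, -4.86 and -0.68 for SPRY4, -3.43 and -0.48 for SPRED1, and -4.14 and -1.03 for SPRED2. DUSP10 went to 0.52 with 5. In OC against DMSO+EV they gave -6.32 and -1.89 for DUSP6, -2.76 and -0.58 for SPRY4 and -2.53 and -0.43 for SPRED1, while a pseudocount of 5 gave -1.82 for DUSP4, 0.64 for DUSP10 and -0.75 for SPRED2. In OC against OL+EV they gave 2.12 and 0.37 for DUSP4, 2.85 and 0.33 for SPRY2, 2.1 and 0.10 for SPRY4 and 2.12 and 0.27 for SPRED2. The direction of each of these differences was the same at all 3 pseudocounts.

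The order of levels changed with treatment. In OL+EV it ran DUSP1, DUSP5, DUSP10, DUSP4, DUSP6, SPRED2, SPRY2, SPRED1, SPRY1 and SPRY4, and the ranges of the neighbours from DUSP4 to SPRED1 overlapped. In OC it ran DUSP1, DUSP5, DUSP10, DUSP4, SPRY2, SPRED2, SPRY1, SPRY4, SPRED1 and DUSP6, with overlap only between SPRY2 and SPRED2 and between SPRY4 and SPRED1. DUSP6, close to DUSP5 in vehicle, was thus the least abundant of the 10 in OC.

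Relatives outside the set were measured for comparison, and each list's counts stand beside the shares of all tested genes given above. Of 7 other MAP kinase phosphatase, Sprouty and SPRED genes 5 could be tested. Of these, 3 fell and 1 rose in OL+EV (median -0.78), and 3 fell and 2 rose in OC (median -0.49). SPRY3 and SPRED3 were too low to be tested. SPRED3 had means of 0.306, 0.844 and 0.737 FPKM in DMSO+EV, OL+EV and OC, with both treated groups above all vehicle values. SPRY3 had means of 0.372, 0.396 and 0.459 in the same order, and its groups overlapped. DUSP2, an inducible nuclear phosphatase, stood at 3.03 ± 0.417 FPKM in DMSO+EV, 0.722 ± 0.0960 in OL+EV and 0.622 ± 0.296 in OC (SD, n = 3). DUSP7, a cytoplasmic ERK phosphatase like DUSP6, went from 2.25 ± 0.381 to 0.856 ± 0.153 and 0.717 ± 0.105, and DUSP9, of the same type, from 1.30 ± 0.107 to 0.342 ± 0.0406 and 0.640 ± 0.0512. All 3 were called lower in both treated groups, but DUSP2 and DUSP9 reached 1 FPKM in no treated library and DUSP7 in 1, so they entered the test through DMSO+EV and their calls follow in part from the filter.

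DUSP8 and DUSP16, which like DUSP10 act mainly on JNK and p38, did not fall in either group. DUSP8 rose from 1.22 ± 0.123 FPKM to 2.39 ± 0.159 in OL+EV and 3.41 ± 0.156 in OC (SD, n = 3; limma adjusted p = 0.000107 and 5.78e-07). DUSP16 stood at 2.86 ± 0.369 in DMSO+EV, 3.15 ± 0.261 in OL+EV and 6.99 ± 0.0735 in OC (limma adjusted p = 0.367 and 5.29e-07). OC exceeded OL+EV for DUSP16 by a log2 difference of 0.95 and for DUSP8 by 0.38 (limma adjusted p = 3.31e-06 and 0.00333). The grouping of DUSP8, DUSP10 and DUSP16 by substrate was made after their values were seen.

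The 12 atypical dual-specificity phosphatases, small relatives most of which lack the MAP kinase docking domain, gave 10 tested genes, and their log2 fold changes ran from -0.60 to 0.51 in OL+EV and from -0.85 to 0.60 in OC. In OL+EV 1 fell and 4 rose (median 0.06), and in OC 3 fell and 4 rose (median 0.17). DUSP12 went from 8.41 ± 1.48 FPKM to 5.16 ± 0.183 and 4.77 ± 0.531, and DUSP22 from 6.27 ± 1.0 to 9.31 ± 0.741 and 9.93 ± 0.735 (SD, n = 3). DUSP14 stood at 13.3 ± 1.08 in DMSO+EV, 12.9 ± 0.572 in OL+EV and 6.96 ± 1.01 in OC.

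Of 20 receptor-to-ERK genes, the cascade that the feedback acts on, 3 fell and 8 rose in OL+EV (median 0.01), where 23.5% of all tested genes fell and 29.0% rose. In OC 4 fell and 11 rose (median 0.38), beside 35.8% and 33.1% of all tested genes. GAB1, counted among them, reached 1 FPKM in the treated libraries only and passed the filter through them. EGFR itself was not called, at 52.3 ± 8.14 FPKM in DMSO+EV, 38.4 ± 2.80 in OL+EV and 43.3 ± 11.2 in OC (SD, n = 3; limma adjusted p = 0.058 and 0.158). ERBB3, a partner receptor that recruits phosphoinositide 3-kinase, rose from 19.8 ± 2.23 to 34.9 ± 2.25 and 67.3 ± 7.87. The RAS exchange factors rose too: SOS1 from 3.95 ± 0.595 to 7.61 ± 0.318 and 9.26 ± 1.5, and SOS2 from 3.51 ± 0.408 to 7.26 ± 0.222 and 9.08 ± 1.02.

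Of 21 listed ERK-induced output genes 17 could be tested: 15 fell and 2 rose in OL+EV (median -1.92), and 13 fell, 1 rose and 3 were not called in OC (median -1.82). EGR1, ETV5, PHLDA1 and HBEGF reached 1 FPKM in no treated library, and FOSL1 and AREG in too few to pass without DMSO+EV, so the counts and medians of this list follow in part from the filter. In OC against OL+EV 2 were lower, 9 higher and 6 not called (median 0.38). ETV4, an ETS factor induced by ERK, stood at 17.4 ± 1.4 FPKM in DMSO+EV, 0.425 ± 0.0825 in OL+EV and 1.80 ± 0.161 in OC (SD, n = 3). EPHA2, a receptor tyrosine kinase, held 28.7 ± 1.55, 2.25 ± 0.0287 and 7.83 ± 0.355 in the same order. Both ETV4 and EPHA2 were thus lowest in OL+EV and in between in OC, as DUSP4 and SPRED2 were. Other outputs took other courses. FOSL1 held 31.8 ± 2.16, 0.825 ± 0.220 and 0.801 ± 0.210, alike in both treated groups. JUNB held 186 ± 8.42, 130 ± 6.27 and 185 ± 19.1.

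FOS and FOSB, immediate early AP-1 genes, were like DUSP1 higher in OL+EV than in OC. FOS held 260, 271 and 259 FPKM in DMSO+EV, 219.8, 215 and 209 in OL+EV and 2.05, 1.9 and 2.44 in OC. FOSB held 88.7, 65.2 and 62 in DMSO+EV, 94.4, 97.5 and 107 in OL+EV and 0.607, 0.691 and 0.633 in OC. Against DMSO+EV, OL+EV was lower for FOS by a log2 difference of -0.29 and higher for FOSB by 0.48 (limma adjusted p = 0.0154 and 0.0047). EGR1 was low in OL+EV beside these FOS and FOSB levels. It held 0.174 ± 0.0793 there, 54.1 ± 4.38 in vehicle and 0.389 ± 0.184 in OC (SD, n = 3). Against OL+EV, OC was lower by 6.11 for FOS and 5.93 for FOSB on the log2 scale (limma adjusted p = 8.99e-15 and 1.75e-13).

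Among 12 other negative regulators of receptor and RAS signalling, 10 tested genes gave 3 falls and 1 rise in OL+EV (median -0.05) and 3 falls and 2 rises in OC (median -0.02). These shares were near those of all tested genes for falls, 23.5% in OL+EV and 35.8% in OC, and below them for rises, 29.0% and 33.1%. ERRFI1, whose product binds and inhibits EGFR, dropped from 35.3 ± 5.92 FPKM to 4.42 ± 0.245 in OL+EV and 5.32 ± 0.249 in OC (SD, n = 3). CBLB, a ubiquitin ligase of receptors, rose in OL+EV from 3.86 ± 0.150 to 7.52 ± 0.206 and stood at 4.57 ± 0.853 in OC. DAB2IP, a RAS GTPase-activating protein, held 15 ± 0.933, 13.3 ± 0.557 and 34.6 ± 1.36 in DMSO+EV, OL+EV and OC. NF1, the partner of SPRED proteins, was 3.89 ± 0.348, 3.71 ± 0.203 and 5.37 ± 1.46 in the same order. Its OC values overlapped those of both other groups, though it is 1 of the 2 rises counted in OC (limma adjusted p = 0.0443). RASA1, 1 of the 3 falls counted in OC, also overlapped vehicle there (limma adjusted p = 0.0433).

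**Figure D4:**
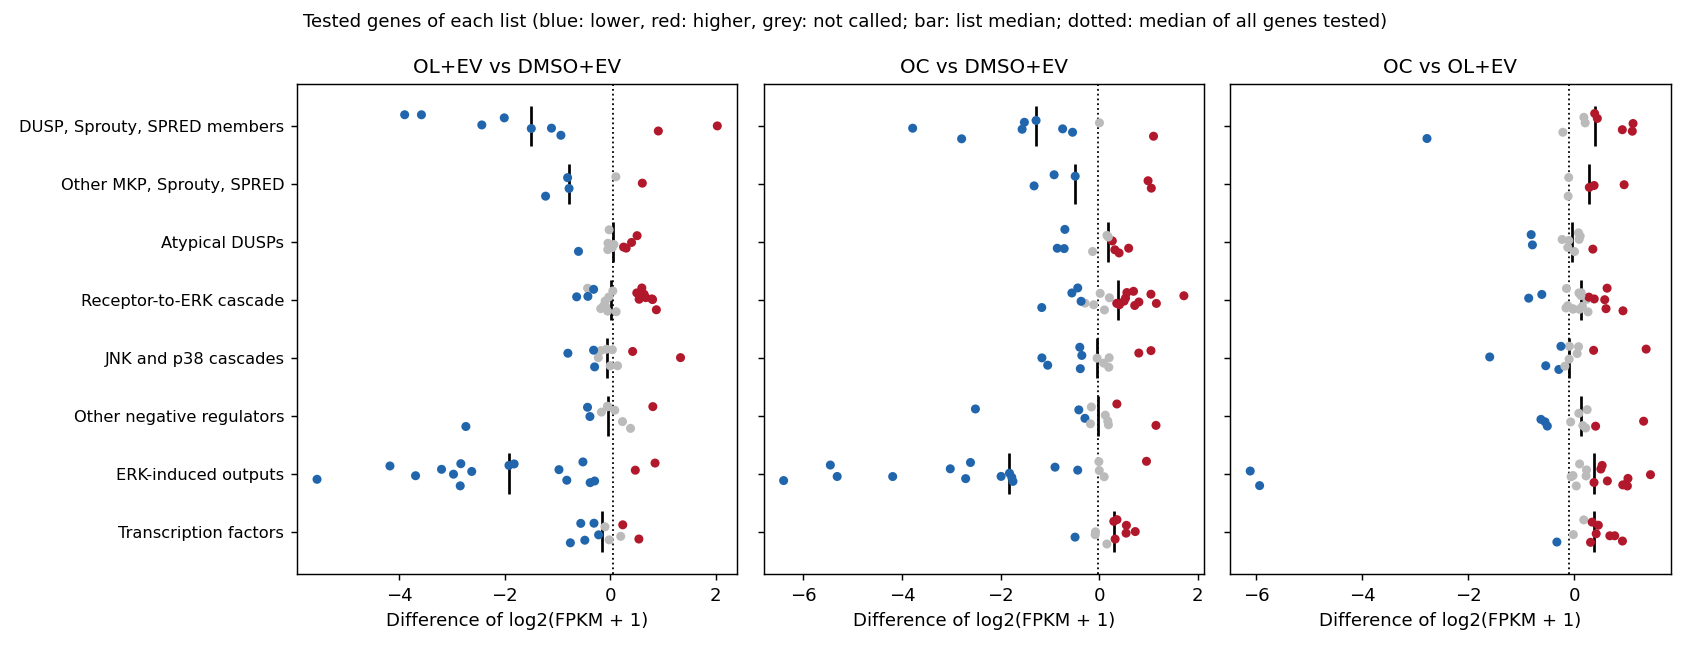
Each point is a tested gene, placed by its difference of log2(FPKM + 1) (horizontal axis) in 1 of the 3 comparisons (panels) and by its list (vertical axis, jittered), coloured by the limma call. The feedback members and the ERK-induced outputs have medians of -1.49 and -1.92 in OL+EV against DMSO+EV. There the atypical phosphatases and the cascade have medians of 0.06 and 0.01, beside 0.05 for all genes. In OC against DMSO+EV these 2 medians are 0.17 and 0.38, beside -0.03.

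The genes with the profile most like a member's were sought by the root mean square difference of log2(FPKM + 1) over the 9 libraries, each gene centred on its own mean. For DUSP6 they were CENPF (0.103), MKI67 (0.114) and HJURP (0.122). MKI67 stood at 23.3 ± 1.84 FPKM in DMSO+EV, 1.03 ± 0.211 in OL+EV and 0.775 ± 0.210 in OC (SD, n = 3). For SPRY4 they were CDH5 (0.117), DBF4 (0.127) and TRAIP (0.136). CDH5, the endothelial marker that reached 1 FPKM, held 3.37 ± 0.269, 0.114 ± 0.0710 and 0.482 ± 0.0503, and the endothelial marker PECAM1, too low to be tested, 0.347, 0.0303 and 0.255, with OL+EV below both other groups. VWF and CLDN5, the other 2 endothelial markers in the table, had means of 0.131 FPKM or less in each group. For SPRED1 they were POLQ (0.0653), BRCA1 (0.0704) and STAMBPL1 (0.0749). For DUSP1, added after its values were seen, they were ATF3 (0.365), MAPK15 (0.424) and HES1 (0.440), so its nearest profiles were farther from it than those of the other 3 members were from theirs. Only tested genes were searched, and DUSP6, SPRY4 and SPRED1 passed the filter through DMSO+EV alone. HJURP, CDH5, DBF4, TRAIP, POLQ and BRCA1 also had means under 1 FPKM in both treated groups. On the log2(FPKM + 1) scale, genes of like vehicle level that end near 0 have like profiles, so such matches follow in part from scale and filter.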

How the data were processed

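Values of 9 RNA-seq libraries entered; 12 libraries of circular RNA were not used here. The deposited values carry no unit; their fractions and unequal totals point to FPKM made by the authors. The submitters' processing notes name STAR, Bowtie2 2.1.0, edgeR and the build hg38 without their roles, and neither counter, annotation nor strand use is stated in any source used here. log2(FPKM + 1) was fitted with limma 3.58.1 (R 4.3.3; model on group, trend, robust variance, 1 fit of 9 libraries) over 13775 genes with at least 1 FPKM in at least 3 libraries, with Benjamini-Hochberg adjustment and a threshold of 0.05. The step was tested on simulated data. The rule for named genes took all 10 members, up to 4 called genes with the largest change per comparison from each other list, and the 3 nearest profiles of DUSP6, SPRY4 and SPRED1. The examples printed were drawn from these with their values seen. Added outside the rule were EGFR, EPCAM, PTPRC, PECAM1, VWF, CLDN5, ETV5, PHLDA1, HBEGF, AREG, JUNB, GAB1, SPRY3, SPRED3 and the DUSP1 profiles. Members and lists were chosen with earlier results of these data known. Positions are RefSeq's (GRCh38.p14). Alternatives were other scalings, filters, pseudocounts and variance models, the compared groups only, a replicate block and leaving out each library. Python 3.11.15 and matplotlib 3.10.9 drew the figures. FPKM is a share of a library, so abundant transcripts that change shift all others.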

Additional observations from a re-analysis of the deposited data

Results flagged for a closer look

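DUSP1 moved in opposite directions in the treated groups. Against DMSO+EV it was higher in all 3 OL+EV libraries and lower in all 3 OC libraries, and the difference between OC and OL+EV was itself tested (log2 difference -2.77, SE 0.08, limma adjusted p = 6.79e-12). OC held 16.8 ± 0.157 FPKM and OL+EV 120.6 ± 3.19 (SD, n = 3).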

How the results depend on the processing

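Leaving out each library with the tested genes held fixed changed no call of a member, and the replicate block gave the same counts of called members, 9, 8 and 6, in OL+EV against DMSO+EV, OC against DMSO+EV and OC against OL+EV. Same-numbered libraries did not deviate together (r from -0.315 to 0.0358 over 9 pairs). Differently numbered libraries of different groups gave r from -0.155 to 0.329, highest for DMSO+EV replicate 1 with OL+EV replicate 3. A block by replicate number does not cover such a link. A filter at 5 FPKM left 5 members to test: 5 called and 3 lower in OL+EV against DMSO+EV, 5 called and 4 lower in OC against DMSO+EV, and 3 called and 2 higher in OC against OL+EV. Of all 8527 genes tested at that filter, 2251 were lower and 2677 higher in OL+EV against DMSO+EV. OC against DMSO+EV gave 3238 lower and 3139 higher, and OC against OL+EV 3148 lower and 2528 higher. Applying the filter again without 1 library removed DUSP6, SPRY4 and SPRED1 whenever a DMSO+EV library was left out: called members ranged from 6 to 9, 5 to 8 and 5 to 6, and lower ones from 4 to 7 in both comparisons with DMSO+EV. With DMSO+EV replicate 1 left out, 13444 genes passed the repeated filter. Of these, 3043 were lower and 3722 higher in OL+EV against DMSO+EV, and 4525 and 4277 in OC against DMSO+EV. In OC against OL+EV 4849 were lower and 3664 higher. Leaving out libraries was planned without saying which genes would be tested. Holding them fixed, and giving the repeated filter as an added alternative, was chosen after seeing the data and the loss of these members. In OC against OL+EV 2 members were lower with quantile normalization and 2 with a pseudocount of 0.1, DUSP6 joining DUSP1. The SPRY2 difference of OC from DMSO+EV, near 0, was -0.0685 without DMSO+EV replicate 2 and -0.0401 without OC replicate 3 (limma adjusted p = 0.642 and 0.787), in a range of -0.0685 to 0.0572 over the libraries left out. Of 690 values of tested members under the alternatives, 681 kept direction and side of the threshold. Scaling moved the median of all genes by at most 0.0512 on the log2 scale, and no tested member changed direction under it. Median-of-ratios rescaling called 3696 of all genes lower and 3575 higher in OL+EV against DMSO+EV, beside 3242 and 3999 without it. Read depth is unknown, so precision near 0 FPKM cannot be given.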

Other observations

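The kinases that DUSP10, DUSP8 and DUSP16 act on, and the factors that carry ERK signals to promoters, were described by lists. Of 11 tested JNK and p38 cascade genes 3 fell and 2 rose in OL+EV (median log2 fold change -0.07), and 5 fell and 2 rose in OC (median -0.04), beside medians of 0.05 and -0.03 over all tested genes, of which 23.5% fell and 29.0% rose in OL+EV and 35.8% fell and 33.1% rose in OC. MAPK11, which encodes p38 beta, rose from 5.65 ± 0.869 FPKM in DMSO+EV to 15.7 ± 0.771 in OL+EV and 10.6 ± 1.24 in OC (SD, n = 3). MAPK12, which encodes p38 gamma, parted the treated groups, at 16.2 ± 1.28, 22.2 ± 1.07 and 6.72 ± 0.940 in the same order. MAP2K3, an activator of p38, dropped from 42.3 ± 2.57 to 23.9 ± 0.943 and 20 ± 0.981. MAP3K5, a stress-activated kinase upstream of JNK and p38, held 2.72 ± 0.630, 1.97 ± 0.255 and 6.63 ± 0.497.

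Of 10 transcription factors that act at ERK-responsive promoters 5 fell and 2 rose in OL+EV (median -0.16), and 1 fell and 6 rose in OC (median 0.31), beside the same shares of all tested genes. Between the treated groups 7 were higher in OC and 1 lower (median 0.38), where 25.9% of all tested genes were higher and 34.8% lower. ELK4, a cofactor of serum response factor, stood at 4.0 ± 0.585 FPKM in DMSO+EV, 2.39 ± 0.204 in OL+EV and 5.39 ± 0.515 in OC (SD, n = 3). ETS2, an ETS factor phosphorylated by ERK, held 6.67 ± 0.231, 5.6 ± 0.152 and 10.2 ± 0.286, and CIC, a repressor relieved by ERK, 9.18 ± 1.06 in DMSO+EV and 13.9 ± 1.89 in OC.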
